A study of Mus musculus with 12 samples.

Results

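The comparison was of regulatory T cells (Tregs) that carry homozygous deletions of both Ebi3 and Il10 (labelled Ebi3 -/- Il10 -/-, here DKO) with wild-type Tregs (WT). Its members were the 3 DKO and the 3 WT arrays, 6 of the 12 Affymetrix mouse arrays of the series, and they were paired by replicate number. The other 6 arrays were Tregs of each single knockout (Ebi3_KO and Il10_KO). Per the labels, all were fresh natural Tregs sorted by flow cytometry from untreated mice, and each replicate number was a batch that held 1 array of each genotype. The labels give no strain, age, sex, targeted allele or clone, and they do not say whether replicates were separate animals. The p-values therefore measure the spread between these samples, which may be technical. Values are MAS5 signals in arbitrary units, and differences are log2(signal + 20) of DKO minus WT. Their standard error (SE) comes from a limma fit of all 12 arrays, 3 a group, so the single knockout arrays enter it too.

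Tregs are CD4 T cells that hold other immune cells in check, and the transcription factor Foxp3 maintains their identity. IL-10, the product of Il10, acts through a receptor that activates STAT3 and dampens inflammatory responses. Ebi3 is a secreted chain that pairs with the product of Il12a to form IL-35 and with the product of Il27 to form IL-27. Both IL-10 and IL-35 are known as products through which Tregs suppress, and deletion of Ebi3 and Il10 is meant to remove both.

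Ebi3, 1 of the 2 deleted genes, fell. Its signal was 1159, 1727.8 and 1725.9 in WT batches 1, 2 and 3, and 15.2, 72.5 and 23.6 in the DKO arrays of the same batches. The DKO arrays of batches 1 and 3 read below the median signal of their array and that of batch 2 just above it (72.5 against 69.6), and the groups did not overlap. The log2 difference was -4.88 ± 0.257 (adjusted p = 1.41e-06 by limma with the Benjamini-Hochberg method), which was -3.58 with an offset of 100 in place of 20, since the DKO signals are near background.

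Il10 did not separate the genotypes. Its probe set read 184.5, 2939.8 and 483.8 in WT and 2250.8, 2639.6 and 1016.7 in DKO. The DKO arrays were higher in batches 1 and 3 and slightly lower in batch 2, and the groups overlapped. The log2 difference was 1.45 ± 0.528 (adjusted p = 0.521). The sources used here do not say whether this probe set lies inside the deleted part of Il10, so it checks nothing about the label, and the Il10 deletion of the libraries labelled DKO rests on that label alone. Il12a, whose product pairs with Ebi3 in IL-35, lay between 10.1 and 61.2 on the 6 arrays, close to background, with a log2 difference of -0.01 ± 0.495.

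Apart from Ebi3, 12 probe sets passed the threshold. In all, 13 of 31235 tested probe sets (0.0416%) were called at an adjusted p under 0.05, of which 5 were higher (0.016%) and 8 lower (0.0256%) in DKO. The 5 that rose were Ctse, Ap1s3, Il17re, Ramp1 and Tmem176a. The 8 that fell were Ebi3, Zfp945, Bcl2, Thap4, D2hgdh, Mcm6 and 2 probe sets without a single gene symbol. At an unadjusted p under 0.05, 8.25% of all tested probe sets differed, 4.37% higher and 3.88% lower, and the median difference over all of them was 0.01. The groups did not overlap for 6.17% of the tested probe sets, with DKO above WT in 3.2% and below it in 2.97%.

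Of the genes that rose, Ctse and Ap1s3 were the 2 that passed the threshold in every setting tried. Ctse encodes cathepsin E, an aspartic protease of endosomes. Its signal was 1211.3, 1483.9 and 1407.2 in WT against 13939.1, 18621.9 and 19483.3 in DKO. All DKO arrays were about 12.4-fold above WT, with a log2 difference of 3.64 ± 0.208 (adjusted p = 1.41e-06, limma). A second Ctse probe set, between 6.5 and 232.8 on these arrays, differed by 0.69 and did not pass. Ap1s3 encodes a small subunit of AP-1, the clathrin adaptor that sorts proteins at the trans-Golgi network and endosomes. It read 85.6, 147.7 and 140.7 in WT and 1680.6, 1818.1 and 1364.9 in DKO. It was low in WT, where the median signals of the arrays were 61.7 to 79.7, and 11.5-fold higher in DKO, with a log2 difference of 3.52 ± 0.197 (adjusted p = 1.41e-06, limma).

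No other member of these genes' families was called. Of 18 tested endosomal and lysosomal proteases and their inhibitors, 9 lay above 0 and 9 below, and the median log2 difference was 0.02. Ctse was the 1 member called. Ctsb, Ctsd and Ctss, which are abundant lysosomal proteases, differed by 0.09, -0.25 and 0.12. Of 23 tested clathrin adaptor genes, 7 lay above 0 and 16 below, with a median of -0.05. Ap1s3 was the 1 member called, and its relatives Ap1s1 and Ap1s2 differed by -0.05 and 0.24.

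Il17re and Tmem176a rose on chromosome 6. Il17re encodes a receptor subunit for IL-17C. It read 187.6, 310 and 140.9 in WT and 576.1, 1028.3 and 555.6 in DKO, without overlap. It differed by 1.68 ± 0.180, and the 3 batches gave 1.52, 1.67 and 1.84 (adjusted p = 0.00248, limma). A second Il17re probe set differed by 1.20 ± 0.196 (adjusted p = 0.0671), and the remaining one, at 5 to 56.3, by -0.12. Tmem176a encodes a membrane protein linked to type 17 lymphocytes and dendritic cells. It read 576.5, 511.6 and 651.2 in WT and 1127.9, 1258.3 and 1281.8 in DKO, so that every DKO array was higher. It differed by 1.06 ± 0.162 (adjusted p = 0.0399, limma), and its other probe sets differed by 0.99 and 0.83 without passing. Ramp1 on chromosome 1, which encodes an accessory protein of CGRP receptors, read 2154.5, 2983.8 and 2603.4 in WT and 4037.7, 5730.5 and 5664.7 in DKO. Its groups did not overlap, and the log2 difference was 0.98 ± 0.126 (adjusted p = 0.00928, limma). Its other probe sets differed by 1.70 and -0.33.

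Thap4 and D2hgdh, which are near each other on chromosome 1, both fell. Thap4, which encodes a protein with a THAP zinc finger and a haem-binding domain, read 1346.8, 2133.8 and 1124.1 in WT and 405.9, 476 and 381.2 in DKO. The log2 difference was -1.77 ± 0.200 (adjusted p = 0.00313, limma), while its other 3 probe sets differed by 0.50, -0.33 and -0.18. D2hgdh, a mitochondrial enzyme that oxidises D-2-hydroxyglutarate, read 1837, 2261.7 and 2254.8 in WT and 495.7, 740 and 933.6 in DKO. Neither gene overlapped between groups, and D2hgdh differed by -1.56 ± 0.174 (adjusted p = 0.00313, limma) with -0.67 in its second probe set.

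Mcm6, a subunit of the replicative helicase, read 4540.5, 7892.3 and 8367.4 in WT and 2585.1, 3547.2 and 3207.5 in DKO. Each DKO array was below each WT array, and the log2 difference was -1.11 ± 0.140 (adjusted p = 0.00913, limma). A second Mcm6 probe set gave -0.88. Of 21 tested genes for the helicase and origin licensing, 8 lay above 0 and 13 below, the median was -0.09 and Mcm6 was the 1 called. The other helicase subunits Mcm2, Mcm3, Mcm4, Mcm5 and Mcm7 differed by 0.03, -0.19, -0.25, 0.07 and -0.18. Over 27 tested genes of mitosis and proliferation the median was -0.06, and none was called.

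Bcl2, which encodes an inhibitor of mitochondrial apoptosis, passed in 1 of 5 probe sets. That probe set read 2307.6, 885.8 and 1201.3 in WT and 1041.7, 289.6 and 157.6 in DKO. DKO was lower within each batch, although batch 1 of DKO lay above batch 2 of WT. This probe set differed by -1.82 ± 0.273 (adjusted p = 0.0351, limma), and the other 4 Bcl2 probe sets differed by -0.34 to 0.14. The median over 14 tested genes of the BCL2 family was 0.00. Zfp945, a zinc finger gene on chromosome 17, also passed in 1 of its 3 probe sets. It read 1124.3, 475.4 and 477.8 in WT and 20.3, 12.1 and 20.9 in DKO, a log2 difference of -4.13 ± 0.613 (adjusted p = 0.0347, limma), which was -2.65 with an offset of 100. Its other probe sets were on the opposite side, at 1.26 and 0.58. The probe sets without a single symbol differed by -1.88 ± 0.268 (adjusted p = 0.0273) and -1.80 ± 0.261 (adjusted p = 0.0293).

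**Figure D1:**
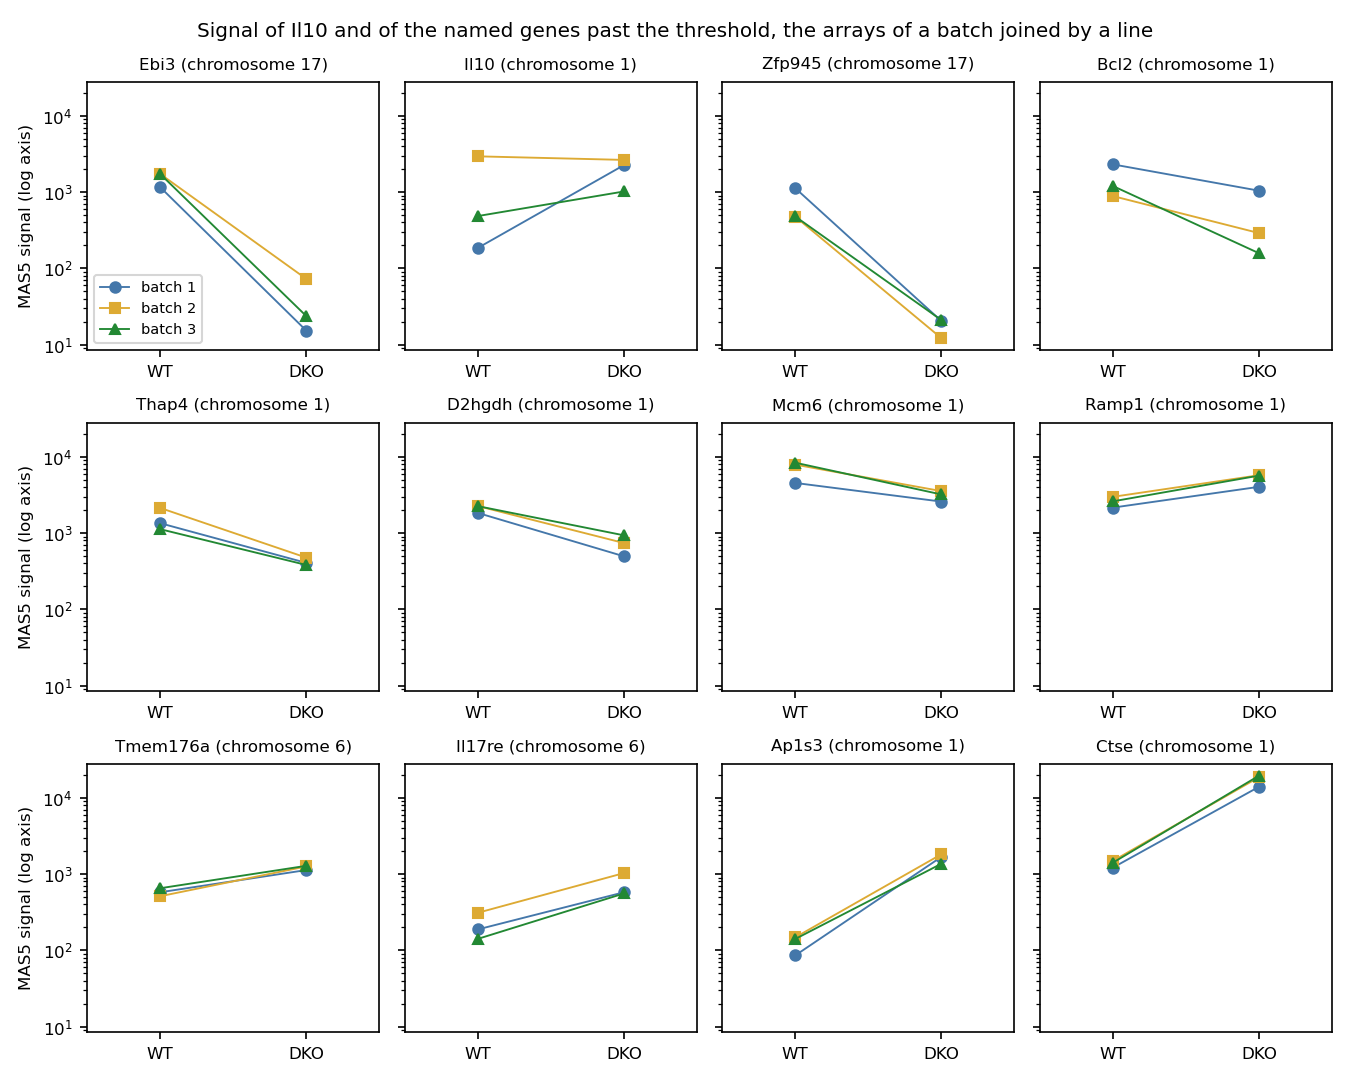
MAS5 signal (log axis) of Il10 and of the 11 named genes past the threshold in each WT and DKO array, with the 2 arrays of a batch joined by a line. The groups are apart for every gene shown except Il10 and Bcl2, and Il10 in batch 1 reads 184.5 in WT and 2250.8 in DKO.

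These calls differed in how well they held. Across 17 alternative settings, Ebi3, Ctse and Ap1s3 passed in 17, with adjusted p-values of at most 0.00634. Il17re passed in 14, D2hgdh in 13, Thap4 in 12, Mcm6 and Ramp1 in 7, Zfp945 and Bcl2 in 6 and Tmem176a in 4. No gene in this group changed sign. With 1 array left out, the number of calls went from 13 to 5 without WT replicate 2, 7 without WT replicate 3, 7 without DKO replicate 2 and 6 without DKO replicate 3. The adjusted p of Thap4 was 0.0534 without WT replicate 2. That of Mcm6 was 0.0615 without WT replicate 2, 0.0817 without WT replicate 3, 0.0853 without DKO replicate 2 and 0.13 without DKO replicate 3. For Ramp1 the values without these 4 arrays were 0.0766, 0.0802, 0.0516 and 0.153, and for Bcl2 0.158, 0.151, 0.116 and 0.225. Zfp945 and Tmem176a missed the threshold without any 1 of the 6 arrays, with adjusted p-values of 0.0747 to 0.276 and 0.0737 to 0.345. In the fit without the replicate block, 3 probe sets passed (0.0096% of those tested), those of Ebi3, Ctse and Ap1s3.

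The reference promoters of 4 called genes are shown to compare a gene that rose on the chromosome of Il10 (Ap1s3), a gene that rose on a chromosome with neither deletion (Il17re), a gene that fell on the chromosome of Il10 (Thap4) and a gene that fell on the chromosome of Ebi3 (Zfp945). Each runs 5′ to 3′ from 250 bases before to 50 after the gene's start, as RefSeq gives it on GRCm38.p6, the C57BL/6J reference. Capitals mark a match to the STAT motif TTCNNNGAA. Thap4 has 2 windows in the table; the one printed holds the match and the other holds none.
Ap1s3, chr1:79671923-79672222, minus strand: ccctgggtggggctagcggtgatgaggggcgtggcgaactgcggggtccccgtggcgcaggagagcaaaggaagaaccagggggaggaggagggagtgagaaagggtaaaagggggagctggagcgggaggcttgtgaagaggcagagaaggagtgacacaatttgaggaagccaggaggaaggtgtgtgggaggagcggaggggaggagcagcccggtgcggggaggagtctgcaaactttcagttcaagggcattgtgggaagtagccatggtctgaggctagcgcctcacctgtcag
Il17re, chr6:113458521-113458820, plus strand: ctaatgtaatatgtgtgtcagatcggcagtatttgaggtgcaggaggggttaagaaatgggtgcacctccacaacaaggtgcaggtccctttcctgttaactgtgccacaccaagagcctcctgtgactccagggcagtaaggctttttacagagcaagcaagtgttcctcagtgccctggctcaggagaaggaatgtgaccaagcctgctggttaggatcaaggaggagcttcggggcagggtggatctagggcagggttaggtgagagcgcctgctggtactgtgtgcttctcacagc
Thap4, chr1:93731877-93732176, minus strand: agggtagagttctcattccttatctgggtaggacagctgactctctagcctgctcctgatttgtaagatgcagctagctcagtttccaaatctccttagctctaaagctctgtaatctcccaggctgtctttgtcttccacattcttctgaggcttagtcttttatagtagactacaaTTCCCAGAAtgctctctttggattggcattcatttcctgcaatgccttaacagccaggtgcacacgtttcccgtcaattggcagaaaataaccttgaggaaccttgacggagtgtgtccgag
Zfp945, chr17:22867085-22867384, minus strand: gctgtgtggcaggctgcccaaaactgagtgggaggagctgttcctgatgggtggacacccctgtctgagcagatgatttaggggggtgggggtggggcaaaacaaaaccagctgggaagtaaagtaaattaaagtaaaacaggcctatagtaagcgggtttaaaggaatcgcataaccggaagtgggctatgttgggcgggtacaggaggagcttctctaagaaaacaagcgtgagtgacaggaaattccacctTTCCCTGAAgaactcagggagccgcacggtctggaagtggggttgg
The reference table held windows for 10 of the 11 named genes, 12 windows in all, with none for Ctse. Both strands were searched for TTCNNNGAA, for the AP-1 transcription factor motif TGANTCA and for the nuclear receptor motif AGGTCA. Matches to the first stood in 1 window each of Thap4 and Zfp945, both of which fell, and the other motifs had no match in the 12 windows. Over all 32851 windows of the table, 8.3% held the STAT letters, 7.81% the AP-1 letters and 16.3% the nuclear receptor letters. A match describes letters in the window and does not show a bound site.

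The genes that passed lay mostly on the chromosomes of the deleted genes. Of the 11 with a known chromosome, 7 lay on chromosome 1 with Il10 (0.451% of 1551 tested probe sets there), 2 on chromosome 17 with Ebi3 (0.17% of 1174) and 2 on chromosome 6. Over all chromosomes other than 1 and 17, 2 of 22592 passed (0.00885%). Gene order was counted from Il10 at 0, with negative numbers toward the start of the chromosome. Ctse stood at 9, Mcm6 at -17, Bcl2 at -77, D2hgdh at -103, Thap4 at -107, Ramp1 at -152 and Ap1s3 at -253. Stk25 (-109), Tmem37 (-44) and Kdm5b (61), which did not pass, differed by -1.35 ± 0.251, 1.11 ± 0.242 and -1.33 ± 0.216. The 3 other probe sets of Kdm5b differed by only -0.09 to 0.08, and Stk25 and Tmem37 had no other tested probe set. The labels name neither strain nor allele, so the loss of the cytokines and other differences carried on the targeted chromosomes cannot be told apart here.

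Smaller differences were also more frequent there. Within 100 genes of Il10, 14.2% of 254 tested probe sets had an unadjusted p under 0.05, against 8.85% on the rest of chromosome 1 and 7.92% on all chromosomes other than 1 and 17. On chromosome 17 the share was 14.5%, with 69 probe sets higher and 101 lower in DKO. It was 14.9% within 100 genes of Ebi3 and 14.7% on the rest of that chromosome. The window was uneven, with 19.8% in the 100 genes before Ebi3 and 9.23% in the 100 after it. The next 100 genes on each side had 5.56% (of 36 probe sets) and 10.9%. In the fit without the replicate block it was 6.39% on chromosome 17 against 2.14% over all probe sets.

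**Figure D2:**
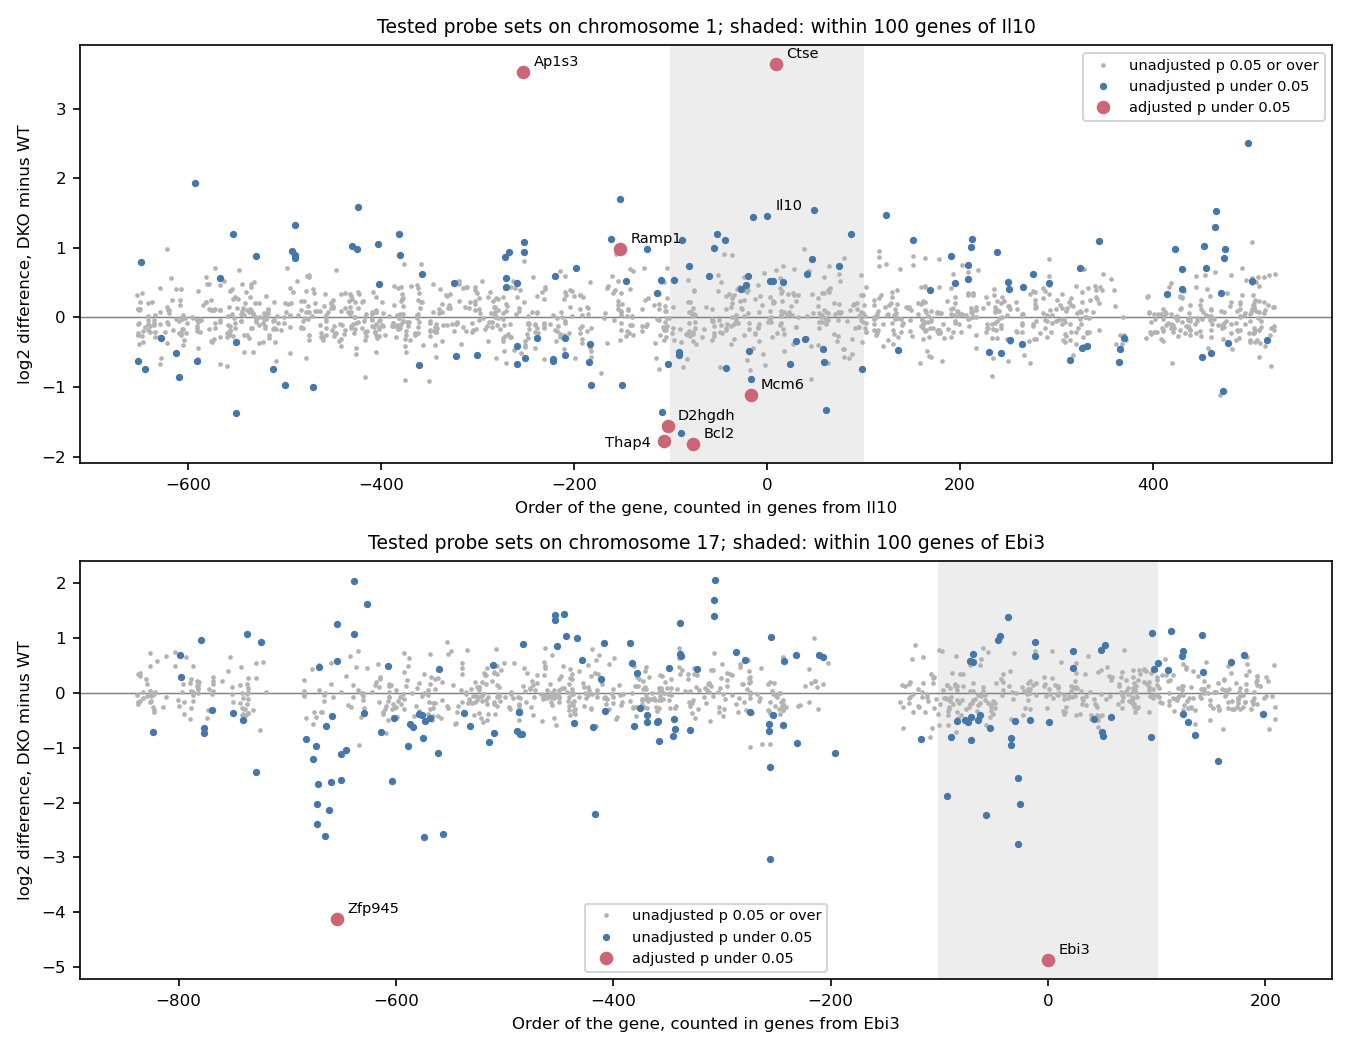
Fitted log2 difference of DKO minus WT for each tested probe set on chromosome 1 (upper) and chromosome 17 (lower), by gene order from Il10 and Ebi3, with grey for an unadjusted p of 0.05 or over, blue for under 0.05 and red for an adjusted p under 0.05. On chromosome 1 the red points run from -253 to 9, and on chromosome 17 points below -1 are spread along the chromosome.

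The 15 genes next in rank among those lower in DKO were drawn largely from chromosome 17. None passed. They included Unc5cl (-2.03 ± 0.354, adjusted p = 0.0799), Gtpbp2 (-1.88 ± 0.338), Riok2 (-1.44 ± 0.244), Baiap3 (-2.57 ± 0.456), Eme2 (-2.62 ± 0.496) and the zinc finger genes Zfp942 (-2.61 ± 0.470), Zfp52 (-2.03 ± 0.374) and Zfp948 (-1.65 ± 0.312). Unc5cl, an adaptor of NF-kB signalling, read 1395.3, 745.9 and 1355.8 in WT against 258.5, 227.7 and 295.7 in DKO, without overlap. Zfp52 was low in both of its probe sets, with -2.39 in the other. Other probe sets of Gtpbp2, Riok2, Eme2 and Zfp942 did not follow and lay between -0.11 and 0.54. Unc5cl, Baiap3 and Zfp948 had no other tested probe set. Among 12 named chromosome 17 genes, including Ebi3 and Zfp945, 7 had another tested probe set, and of these 12 other probe sets 4 had the same direction and 1 an unadjusted p under 0.05. Among 10 named genes higher in DKO on chromosomes other than 1 and 17 with another probe set, 12 of 14 had the same direction. Of these, 9 had an unadjusted p under 0.05. For the 3 genes lower in DKO there, 6 of 10 other probe sets had the same direction and 3 such a p. On chromosome 1 the same direction was seen in 6 of 7 for genes higher in DKO and 9 of 12 for genes lower. In each of these 2 sets, 2 had such a p. The part of sequence differences under single probe sets in these values was not tested.

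The same genes were set beside the single knockouts. DKO, Ebi3_KO and Il10_KO were all compared with the same WT arrays, so their values are given side by side only. Ctse differed from WT by 3.64 in DKO, 3.71 in Il10_KO and 0.33 in Ebi3_KO, and Ap1s3 by 3.52, 3.54 and 0.58. Thap4 differed by -1.77, -1.67 and 0.13, D2hgdh by -1.56, -1.38 and -0.01, and Mcm6 by -1.11, -1.14 and -0.34. On chromosome 17, Zfp945 differed by -4.13 in DKO, -0.33 in Il10_KO and -2.09 in Ebi3_KO, and Eme2 by -2.62, -0.09 and -1.85. Il17re differed by 1.68, 1.17 and 0.02, and Tmem176a by 1.06, 1.06 and 0.25. An interaction term asked whether DKO departed from the sum of the single-knockout differences on the log2 scale. It passed for 0 of 31235 probe sets by limma, with 1232 at an unadjusted p under 0.05. For the genes named here its adjusted p was 1.00, and for Il17a it was 1.55 ± 0.640 and for Zfp945 -1.70 ± 0.868.

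**Figure D3:**
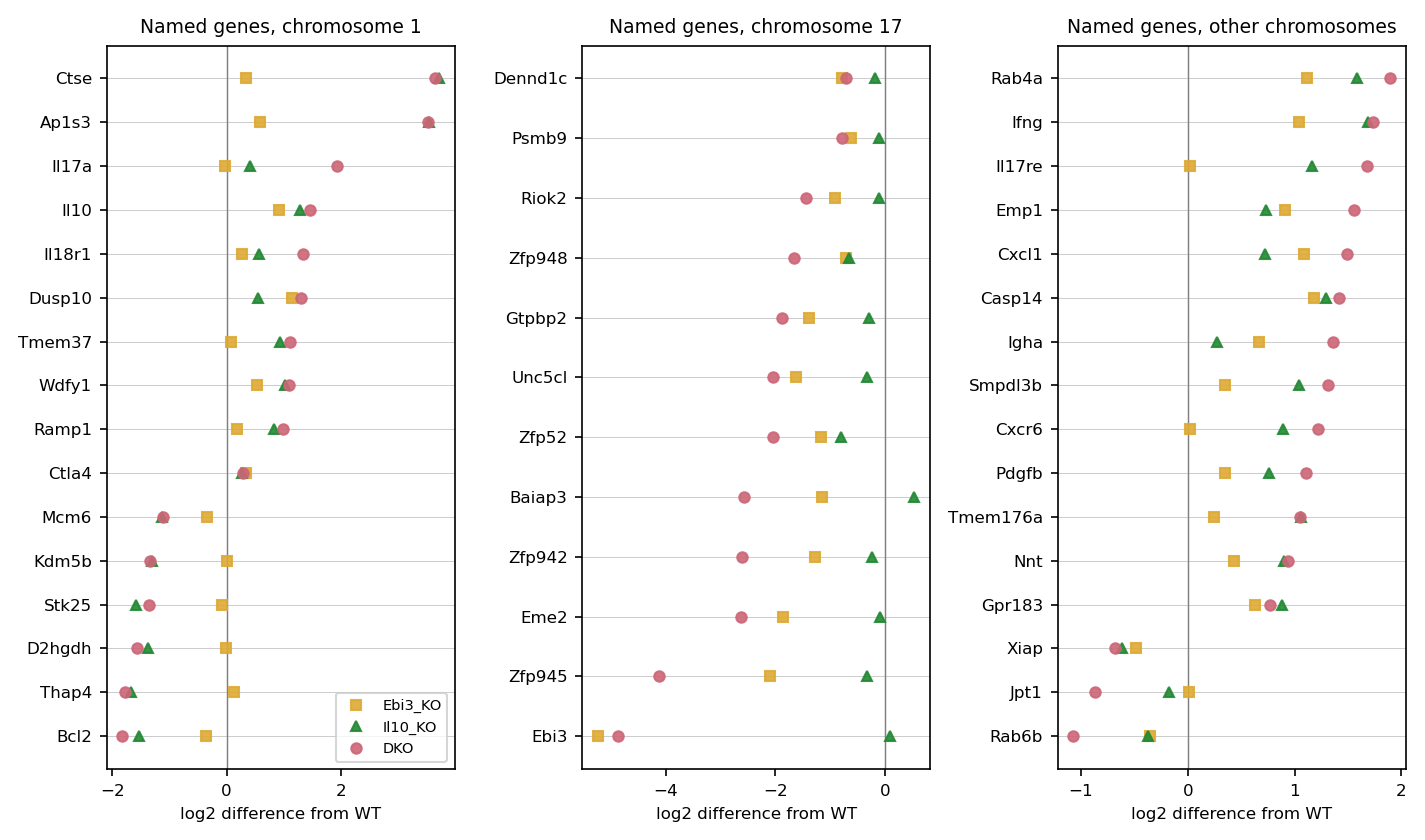
Fitted log2 difference from WT of DKO (circles), Ebi3_KO (squares) and Il10_KO (triangles) for named genes on chromosome 1 (left), chromosome 17 (middle) and other chromosomes (right), each at its probe set of smallest p. For Ctse and Ap1s3 the Il10_KO point lies on the DKO point, and for Zfp945 the Ebi3_KO point at -2.09 lies nearer to DKO than the Il10_KO point at -0.33; all 3 comparisons share the WT arrays.

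Effector cytokine genes were higher in DKO as a group, and none passed the test. All 11 tested of 17 listed effector cytokines, their receptors and regulators lay above 0, against 51.2% of all tested probe sets, and their median log2 difference was 0.90 against 0.01. At an unadjusted p under 0.05, 9 of the 11 were higher and 0 lower, against 4.37% and 3.88% of all tested probe sets. This list, too, was chosen with earlier results of these data known, so its counts are no independent support. With no filter on low signals, 12 of 13 lay above 0 with a median of 0.89, 9 were higher and 1 lower at that limit. The lower one was Il13, a type 2 cytokine, at -0.72 ± 0.302 and signals of 6.2 to 52. Of the 11, 6 did not overlap between groups (3.2% of all probe sets were higher without overlap). The list mean was higher in DKO in each batch, by 0.95, 1.32 and 0.67, and its median was 0.69 to 1.25 with any 1 array or batch left out and 0.54 with an offset of 100 in place of 20. Of the 11 genes, 4 lie on chromosome 1 and 1 on chromosome 17, and the median of the other 6 was 0.87.

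Ifng, the defining cytokine of type 1 responses, read 307.3, 1666.6 and 1009.4 in WT and 1672.1, 4640.4 and 2631.4 in DKO. Within every batch DKO was higher, by 2.37, 1.47 and 1.36, and the lowest DKO array lay just above the highest WT array. The largest of these stands on WT replicate 1, which is also low for the immediate-early genes below. The part of that array was not tested. Ifng differed by 1.73 ± 0.347 (adjusted p = 0.137, limma), and by 1.17 to 2.02 with 1 array or batch left out. Il17a, the cytokine of type 17 cells, read 73.7, 170.3 and 49.7 in WT and 411.3, 1043.2 and 131.9 in DKO. It was higher in each batch and overlapped between groups, with a log2 difference of 1.94 ± 0.452 (adjusted p = 0.269). Il18r1, the binding chain of the IL-18 receptor, read 1180, 863.5 and 1290 in WT and 2622, 2539.3 and 3277.3 in DKO. It differed by 1.33 ± 0.228 (adjusted p = 0.0719), the smallest p of the list, and its signalling partner Il18rap by 0.89 ± 0.259. Csf2 (GM-CSF), Il2, Il4 and Tnf were 1.25 ± 0.344, 0.90 ± 0.318, 0.84 ± 0.334 and 0.60 ± 0.202 higher. Csf2, Il2 and Il4 lay at signals of at most 186.6 on these arrays. Tbx21, the regulator of type 1 cells, differed by 0.23 ± 0.234. Higher signals were not particular to DKO for every gene. In batches 1, 2 and 3, Ifng read 2512.8, 3589.1 and 2048 in Il10_KO and 1895.6, 1869.5 and 1351.2 in Ebi3_KO. Csf2 read 80.3, 68.2 and 117.9 in Il10_KO against 8.8, 34.1 and 41.7 in WT. Il17a and Il18r1 differed from WT by 0.41 and 0.56 in Il10_KO and by -0.02 and 0.26 in Ebi3_KO, less than in DKO.

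Genes of the IL-17 receptor family and of type 17 cells lay on the same side. Of 10 tested of 13 listed, 9 were above 0 (51.2% of all tested probe sets were), and the median was 0.60. At an unadjusted p under 0.05, 7 were higher and 0 lower, against 4.37% and 3.88% of all tested probe sets. The list was chosen with earlier results of these data known. Il17re, Tmem176a and Tmem176b are among the 7, and Il1r1 is counted in the cytokine list too. These counts are therefore no independent support. With no filter, 11 of 12 were above 0. The list takes for each gene its probe set of highest mean signal, which for Il17re and Tmem176a was not the called one, so 0 were called in this list. Tmem176b, the neighbour and paralog of Tmem176a, read 1146.6, 1060.7 and 1997 in WT and 1887.6, 2152.1 and 3334.3 in DKO, with a log2 difference of 0.82 ± 0.193. Rora, a nuclear receptor that supports type 17 differentiation, differed by 0.70 ± 0.162, Ahr by 0.39 ± 0.161 and Ccr6 by 0.30 ± 0.127. Il17ra, the common signalling subunit, differed by -0.13 ± 0.169. Cxcr6, a chemokine receptor of effector T cells, differed by 1.22 ± 0.249 (adjusted p = 0.149), with 0.28 in batch 1 and 1.51 and 1.85 in batches 2 and 3.

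**Figure D4:**
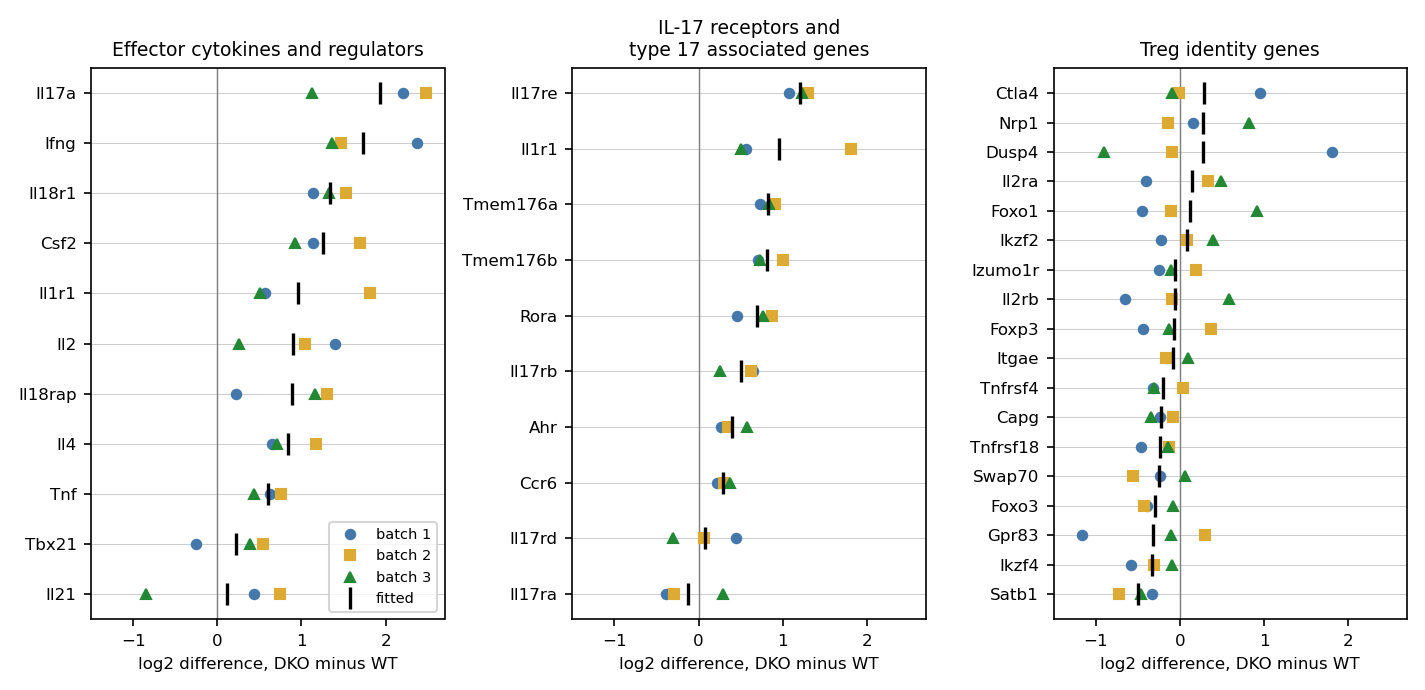
Log2 difference of DKO minus WT within batch 1 (circles), batch 2 (squares) and batch 3 (triangles) and fitted over the batches (bars) for the tested members of the lists of effector cytokines (left), type 17 genes (middle) and Treg identity (right). In the left panel 9 of 11 genes are above 0 in all 3 batches, and in the right panel 0 of 18 are.

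Genes that mark CD8 T cells and NK cells were divided. Of 14 tested, 8 lay above 0 and 6 below, against 51.2% above over all tested probe sets, with a median of 0.41 (0.24 with an offset of 100). Of the 14, 5 were higher and 0 lower at an unadjusted p under 0.05 (4.37% and 3.88% of all tested probe sets), and none was called. Their summed signal was 3007 to 13062.4 in WT and 3454.5 to 19067.4 in DKO, higher in DKO in every batch, and no member was at 0. Without Tyrobp, a signalling adaptor that myeloid cells also express, and Gzma, the sum in batch 1 was 2576.6 in WT and 2352.4 in DKO, so that the direction there rests on these 2 genes. In batch 3 the sum was 6005 higher in DKO, of which Tyrobp gave 3590.3. Klrd1, an NK receptor chain, differed by 0.93 ± 0.217, Klrc1 by 1.33 ± 0.376 and Gzma by 0.85 ± 0.320. The defining genes Cd8b1 and Ncr1 differed by -0.37 ± 0.240 and -0.20 ± 0.507, with Ncr1 at 18.8 to 135.8. The part of such cells in the cytokine values was not tested. In sorted bulk samples, more cells of a type and more RNA per cell cannot be told apart. Igha, the constant region of IgA, was also higher in each batch, at 92.8, 747.7 and 1724.2 in WT and 356.3, 1389.5 and 4824.7 in DKO. Its 3 probe sets differed by 1.36, 2.26 and 2.06, none of which passed (adjusted p of 0.0676 to 0.14). The plasma cell marker Jchain was 0.88 ± 0.367 higher, whereas the median over 7 plasma cell markers was 0.11 and that over 10 B cell markers was -0.22.

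The Treg programme itself showed no called gene. Foxp3 read 7361.9, 6153.1 and 5390.6 in WT and 5427.2, 7955 and 4945.3 in DKO, overlapping, with a log2 difference of -0.06 ± 0.149 (adjusted p = 0.933). Of 18 tested identity genes, 6 lay above 0 and 12 below, against 48.8% below over all tested probe sets, with a median of -0.07. Satb1, a chromatin organiser whose gene lies on chromosome 17 with Ebi3, read 8042.1, 9029 and 8070.2 in WT and 6399.1, 5484 and 5880.6 in DKO. It was lower in all 3 batches by 0.50 ± 0.141 on the log2 scale as fitted (adjusted p = 0.417). Ikzf2 and Il2ra, which encode Helios and CD25, differed by 0.08 ± 0.137 and 0.14 ± 0.193.

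Among 21 suppressive molecules, 10 lay above 0 and 11 below, with a median of -0.04 and 0 called. Ctla4 differed by 0.28 ± 0.189, and Lag3, an inhibitory receptor, by -0.52 ± 0.235. Gzmb read 3066.5, 2168.8 and 1071.9 in WT and 1091.2, 1395.2 and 1591.2 in DKO. DKO was lower in batches 1 and 2 and higher in batch 3, and the difference was -0.51 ± 0.411. Tnfsf10, which encodes the death ligand TRAIL, differed by 0.25, -0.08 and -0.03 in its 3 probe sets. Of 17 tested genes of effector Tregs, 9 lay above 0, with a median of 0.21 that ranged from -0.03 to 0.27 when an array or batch was left out. Id2 and Gata3 differed by 0.91 ± 0.279 and 0.38 ± 0.128, and Itgb8, an integrin chain that activates TGF-beta, by -0.58 ± 0.156. Of 10 genes of resting T cells, Cd27 and Id3 were lower, at -0.65 ± 0.156 and -0.54 ± 0.216, and the median was -0.03.

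Most receptors and signal carriers of the missing cytokines were close to WT. Of 10 tested genes 5 lay above and 5 below 0, the median was 0.01 and 0 had an unadjusted p under 0.05. Il10ra and Il10rb, the IL-10 receptor chains, differed by 0.17 ± 0.150 and -0.19 ± 0.133. Il6st and Il27ra, receptor chains for IL-35 and IL-27, differed by -0.26 ± 0.141 and 0.05 ± 0.140, and Stat3 by 0.07 ± 0.225. Il12rb2 had the largest difference of the list, -0.55 ± 0.438, with -1.13, 0.67 and -1.19 in the 3 batches. Its signals of 3.2 to 67.3 were near background. Of the 8 SOCS genes, which encode feedback inhibitors of cytokine signals, Socs3 was the 1 with an unadjusted p under 0.05, at 0.61 ± 0.134 (adjusted p = 0.215), and it was higher in each batch.

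Immediate-early genes, which T cells induce within minutes of stimulation or handling, differed mainly in batch 1. Of 28 tested, 27 lay above 0 (51.2% of all tested probe sets did), with a median of 0.80. At an unadjusted p under 0.05, 13 were higher (4.37% of all tested probe sets), but the mean differences in batches 1, 2 and 3 were 2.14, 0.00 and 0.16. WT replicate 1 was low, with a mean log2 signal of 10.46 against 11.56 to 12.60 on the other 5 arrays. Without WT replicate 1 the median was 0.07. Heat shock and handling genes behaved alike, with batch means of 1.21, -0.03 and 0.02 and a median of 0.18 that became 0.04 without that array. All 9 tested chemokine genes lay above 0 with a median of 0.56, which was 0.14 without WT replicate 1. Ccl1, a chemokine of activated T cells, was 0.92 ± 0.219 higher and did not overlap, with 0.86, 1.37 and 0.51 in the 3 batches. The Il10 difference in batch 1, 3.47, stands on the same WT array, and the part of that array in it was not tested.

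Interferon response genes were on the low side. Of 33 tested, 25 lay below 0 (48.8% of all tested probe sets did), and the median was -0.21. At an unadjusted p under 0.05, 7 were lower and 0 higher, against 3.88% and 4.37% of all tested probe sets. The batch means were -0.49, -0.32 and 0.05, and without WT replicate 1 the median was -0.09. Psmb9, a subunit of the immunoproteasome, read 7023.5, 2862.7 and 5748.4 in WT and 4047.6, 1579.8 and 3479.1 in DKO. It was lower in each batch, by -0.79, -0.85 and -0.72, and did not pass (adjusted p = 0.0799). Bst2, an antiviral membrane protein, was also lower in each batch, with a log2 difference of -0.83 ± 0.226. Psmb9 and its neighbour Tap1 (-0.47 ± 0.137) lie on chromosome 17, and the median of the 30 members off chromosomes 1 and 17 was -0.20.

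Metabolic lists lay close to 0. Of 26 tested genes of oxidative phosphorylation, 22 lay below 0 (48.8% of all tested probe sets did). The median was -0.12, and none had an unadjusted p under 0.05. The medians of 15 glycolysis and 18 lipid synthesis genes were 0.06 and -0.01. Nnt, the mitochondrial transhydrogenase, read 883.6, 455.9 and 587.8 in WT and 1311.2, 1139.8 and 1179 in DKO, without overlap. It differed by 0.94 ± 0.176 (adjusted p = 0.106), with 0.78 in its second probe set. Rab6b, a Golgi traffic GTPase, was lower without overlap in 3 of its 4 probe sets, by -1.07, -0.82 and -0.56, with 0.36 in the remaining one. Xiap, an inhibitor of caspases, was lower without overlap in 1 probe set, by -0.68 ± 0.128 (adjusted p = 0.106, limma). Its 5 other probe sets differed by -0.18 to 0.93. Of these, 3 had the same direction, 0 of them at an unadjusted p under 0.05.

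**Figure D5:**
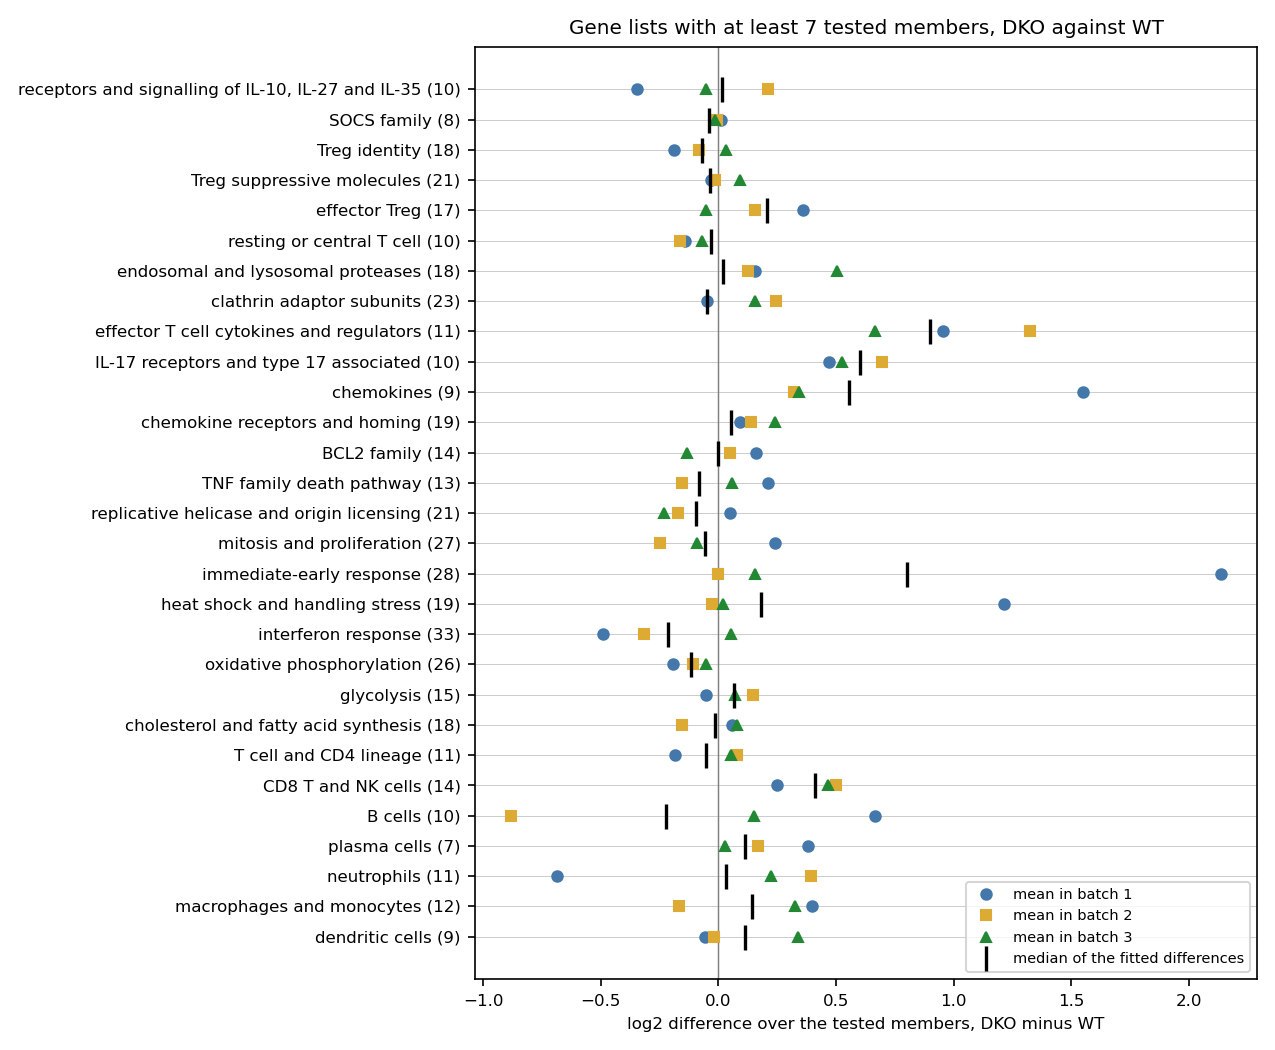
Mean log2 difference of DKO minus WT over the tested members of each gene list (number in brackets) in each batch, with bars for the median of the fitted differences. The lists of effector cytokines and type 17 genes lie right of 0 in all 3 batches. So do those of chemokines, chemokine receptors, endosomal and lysosomal proteases, CD8 T and NK cells and plasma cells. The immediate-early list lies at 2.14 in batch 1 and at 0.00 and 0.16 in batches 2 and 3.

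The sorted populations bore T cell markers throughout. All 11 tested T cell genes had signals over 1000 on each of the 6 arrays. The summed signal of 12 macrophage and monocyte markers was 28144.7 in WT and 42754.2 in DKO in batch 3, against 3846 to 5588.5 on the other 4 arrays. The Y-linked gene Eif2s3y read 3390.6 to 4477.6 in batches 1 and 2 and at most 43 in batch 3, where Xist read 3679.1 and 3620. WT and DKO of a batch thus had the same pattern of these genes, and batch 3 differed in Eif2s3y from batches 1 and 2.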

How the data were processed

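RNA of sorted mouse Tregs was measured on 12 Affymetrix arrays, 3 per genotype, after Qiagen column extraction and 2-cycle biotin labelling of 1 µg per the labels' protocols. MAS5 and Partek 6.4 are named in the submitters' processing notes. The deposited values, made by the authors, are natural log values of the MAS5 signal plus 20. This scale was read from the values: after exponentiation and subtraction of 20, signals below 200 were multiples of 0.1 within 0.005, with a trimmed mean of 500.0 on every array. Division by the natural log of 2 was the one change made to them.

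The 64 control probe sets were removed. Testing was limited to probe sets at or above the 40th percentile of the array on 3 or more arrays (31235 kept, 13802 removed). Of 34945 probe sets with 1 symbol in the platform annotation, 34737 were matched to GRCm38.p6, used for names, chromosomes and gene order.

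All 12 arrays were fitted with limma 3.58.1 in R 4.3.3 (lmFit, eBayes with trend) on genotype and batch, which equals the replicate number, with 6 residual degrees of freedom and Benjamini-Hochberg adjustment at 0.05. As a check of the pairing, arrays of 1 number correlated at 0.325 to 0.664 after removal of genotype means. Arrays that differed in number and genotype correlated at -0.531 to -0.0204. Removal of the means pushes the latter below 0 where the former are positive, so this contrast is partly built in. The fit was tested on simulated data. Lists were described by counts and medians over 1 probe set per gene, that of highest mean.

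Genes named were Ebi3 and Il10, those called, the 15 next by p in each direction with 1 sign in all batches, the called genes and the 4 of smallest p in each list, and Ifng, Il17a, Foxp3, Ctla4, Gzmb, Tnfsf10, Il12a and Bcl2. Further list members were named after their values were seen. Members and lists were chosen with earlier results of these data known. The number of arrays limits the precision. Alternatives were the fit without the replicate block, the 6 arrays alone, batch as a random block, other filters, quantile normalization, an offset of 100, no trend, and each array or batch left out.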

Additional observations from a re-analysis of the deposited data

How the results depend on the processing

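The count of calls depended on the replicate block. Without it, 3 probe sets passed in place of 13, 2 on chromosome 1 in place of 7, and 6.39% of chromosome 17 probe sets had an unadjusted p under 0.05 in place of 14.5%. eBayes without trend gave 4 calls, 2 of them on chromosome 1. With 1 array left out there were 5 to 15 calls in all and 3 to 8 on chromosome 1. With 1 batch left out there were 4 to 20, the 20 without batch 1, and 2 to 7 on chromosome 1. Fewer arrays enter the fits with an array or batch left out; the cause of the other changes was not tested. The counts changed by less than 1.5 times with the random block (10 calls), no filter (13), the 60th percentile filter (11), quantile normalization (13), the offset of 100 (13) and the 6 arrays alone (19, of which 8 were shared with the 13).

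Of 812 values of 48 named genes under 17 alternatives, 725 kept direction and side of the threshold, 67 lost it, 10 gained it and 10 changed sign. The sign changes were in Il12a, Foxp3 and Ctla4, none of which was called. Il12a, near background, was 0.0032 with the offset of 100, -0.33 to 0.58 with 1 array left out and up to 0.68 without batch 3. Foxp3 was -0.24 to 0.078 with 1 array left out and 0.12 without batch 1. Ctla4 was -0.049 to 0.48 with 1 array left out, the lowest without WT replicate 1, and -0.051 without batch 1.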
